A study of Homo sapiens with 2 samples.

Results

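The receptors and ligands of the fibroblast growth factor (FGF) system were described on 2 arrays of RNA labelled as U87, an established human glioblastoma cell line. The members were the receptor genes FGFR1, FGFR2, FGFR3 and FGFR4, the ligand genes FGF1, FGF2, FGF5 and FGF7, FGF13 and FGFBP3. The choice was made by name, with earlier results of these data known. They were represented by the 37 probe sets, of 54675 on the array, whose single gene symbol in the platform annotation was one of these 10 genes. One sample had received FOXM1 siRNA and the other a non-target siRNA. FOXM1 is a transcription factor of the forkhead class that acts in the cell cycle. Both were labelled as cultures in DMEM with serum, transfected with a lipid reagent, with RNA taken 48 hours later. Each group held 1 sample and 1 array, so no test between the siRNAs was possible and no value below has a replicate check.

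FGFs are secreted growth factors that bind receptor tyrosine kinases together with heparan sulfate chains on the cell surface. The bound receptors phosphorylate each other and the adaptor FRS2, which recruits GRB2 and SOS and so activates the RAS and ERK cascade. ERK signalling in turn induces its own inhibitors, among them Sprouty proteins and the phosphatase DUSP6. In gliomas FGF2 is known as a mitogen of the tumour cells.

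The values are linear signals per probe set, scaled by the authors to a common mean. A signal counted as detected above a floor, the 90th percentile of 135 probe sets for olfactory receptor genes, which was 77.7 on the FOXM1 siRNA array and 60.8 on the non-target siRNA array. Log2 differences are FOXM1 siRNA minus non-target siRNA, with lower signals raised to the floor. Where only 1 array lay above its floor, the difference is a bound and is written with "at least" or "at most". Signals of different probe sets are not on one scale, so each log2 difference compares the same probe set across arrays. The sums given for marker lists add the same probe sets on each array. They are led by the brightest probe sets, include signals below the floor and serve as a rough description only. The only error at hand lies within the arrays: over 5476 genes with several probe sets above both floors, the differences of a pair of probe sets of 1 gene spread with an SD corresponding to 0.49 per probe set on the log2 scale. This is the yardstick used below.

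The arrays did not bear out the labels in the checks on FOXM1 and on genes deleted in U87 cells, and are named here as labelled. FOXM1 itself had 1 probe set, which read 1343 with FOXM1 siRNA and 1520 with non-target siRNA, a log2 difference of -0.18. This is smaller than 0.49, so no clear knockdown was seen by that yardstick, and the error of the difference itself is not known. The 9p21 genes CDKN2A, CDKN2B and MTAP, known to be deleted in U87 cells, lay above the floor in 1 of 3 cases with FOXM1 siRNA and in 3 of 3 with non-target siRNA, with summed signals of 529 with FOXM1 siRNA and 4436 with non-target siRNA. CDKN2A was detected on both arrays, at 421 with FOXM1 siRNA and 3467 with non-target siRNA. MTAP, at 76.3 with FOXM1 siRNA and 619 with non-target siRNA, lay just under the FOXM1 siRNA floor and above the floor of 71.4 taken without olfactory pseudogenes. These signals go against the U87 label, most plainly for the array labelled non-target siRNA. Marker lists also differed. Mesenchymal markers summed to 48077 with FOXM1 siRNA and 4830 with non-target siRNA (4 of 6 detected on each array). That sum is carried by FN1 (log2 difference 3.19), COL1A1 (3.35) and COL1A2 (4.07), and the COL1A1 probe sets ran down to -0.06. PDGFRB was detected with FOXM1 siRNA only. COL3A1 was detected with non-target siRNA only, just over the floor and with no fold, and THY1 lay below both floors. Epithelial markers summed to 1104 with FOXM1 siRNA and 12763 with non-target siRNA (4 of 6 on each, median log2 difference -0.53). The epithelial sum is carried by DSP, 336 with FOXM1 siRNA and 9707 with non-target siRNA, and KRT18, 380 with FOXM1 siRNA and 2655 with non-target siRNA. KRT8 (0.27) and EPCAM (at least 0.70) had positive log2 differences, CDH1 had at most -0.53, and KRT19 lay below both floors. Neuronal and neuroendocrine markers summed to 282 with FOXM1 siRNA and 1052 with non-target siRNA (1 of 5 on each, ISL1). Glial and glioma markers summed to 40704 with FOXM1 siRNA and 22318 with non-target siRNA (4 of 7 on each, median log2 difference 0.30), with the astrocyte marker GFAP below both floors. That sum is nearly all VIM, 40017 with FOXM1 siRNA and 21179 with non-target siRNA. NES and FABP7 went the same way as VIM, at least 4.29-fold and at least 1.53-fold higher. SOX2 went the other way, at least 8.75-fold lower, as did S100B, at least 1.13-fold lower, and OLIG2 hardly differed (log2 difference -0.02). Endothelial markers were detected in 2 of 3 cases with FOXM1 siRNA and 1 of 3 with non-target siRNA, with sums of 245 with FOXM1 siRNA and 85.1 with non-target siRNA. None of 3 immune markers was detected, with sums of 61.5 with FOXM1 siRNA and 94.1 with non-target siRNA. For the ACTB control, the 3' probe set read 4.21 times the 5' probe set with FOXM1 siRNA and 6.79 times with non-target siRNA. For the GAPDH control these ratios were 1.09 with FOXM1 siRNA and 1.26 with non-target siRNA. The part of these differences in the FGF values was not tested, and the siRNA and any difference between the cultures cannot be told apart.

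Within the family, the detected probe sets of FGFR2, FGFR3 and FGFR4 were dimmer with FOXM1 siRNA, whereas those of FGFR1 did not share a direction. FGF2 and FGF13 were brighter on the FOXM1 siRNA array, and FGF1 and FGF5 lay above the floor on that array only. FGFR3 was 16.3-fold lower and FGFR2 5.00-fold lower with FOXM1 siRNA, while FGF13 was 7.90-fold and FGF2 6.90-fold higher. The brightest FGFR1 probe set was 2.37-fold higher, though the 7 FGFR1 probe sets ran from -0.40 to 1.24 on the log2 scale. FGF1 was at least 2.17-fold higher, and passed 2-fold in 6 of the 11 settings that gave it a value. Of the 37 probe sets, 14 lay above both floors, 6 above 1 floor and 17 below both. Among the 20 detected, 7 passed 2-fold in the higher direction and 3 in the lower one with FOXM1 siRNA. Over all 32306 detected probe sets, 14.7% passed 2-fold upward and 12.9% downward. The share of lower FGF probe sets was near this background and that of higher ones (35%) above it. The higher ones were 3 of FGFR1, 2 of FGF2, 1 of FGF13 and 1 FGF1 bound. Since the members were chosen with earlier results known, the larger share cannot be read as a result about the family. With 1 probe set per gene, the brightest, 4 of 9 detected genes were higher and 2 lower, against 16.0% higher and 15.4% lower among 13865 detected genes. With the hybridisation controls set equal in place of the deposited scaling, the shares over all genes were 11.3% higher and 23.1% lower, and 2 FGF genes were higher and 3, now with FGFR4, lower. In that setting 3 of the 20 detected FGF probe sets were higher. The 6 probe sets above 1 floor passed through the brighter array only. For those of FGF1 and FGF5, above the higher FOXM1 siRNA floor only, the direction was fixed by detection. For those of FGFR2 and FGFR4, above the lower non-target siRNA floor only, detection alone did not fix it. A bound that fell under 1-fold would however have been given no fold. In RNA of whole cultures, fewer cells that express a gene and less RNA per cell cannot be told apart.

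**Figure D1:**
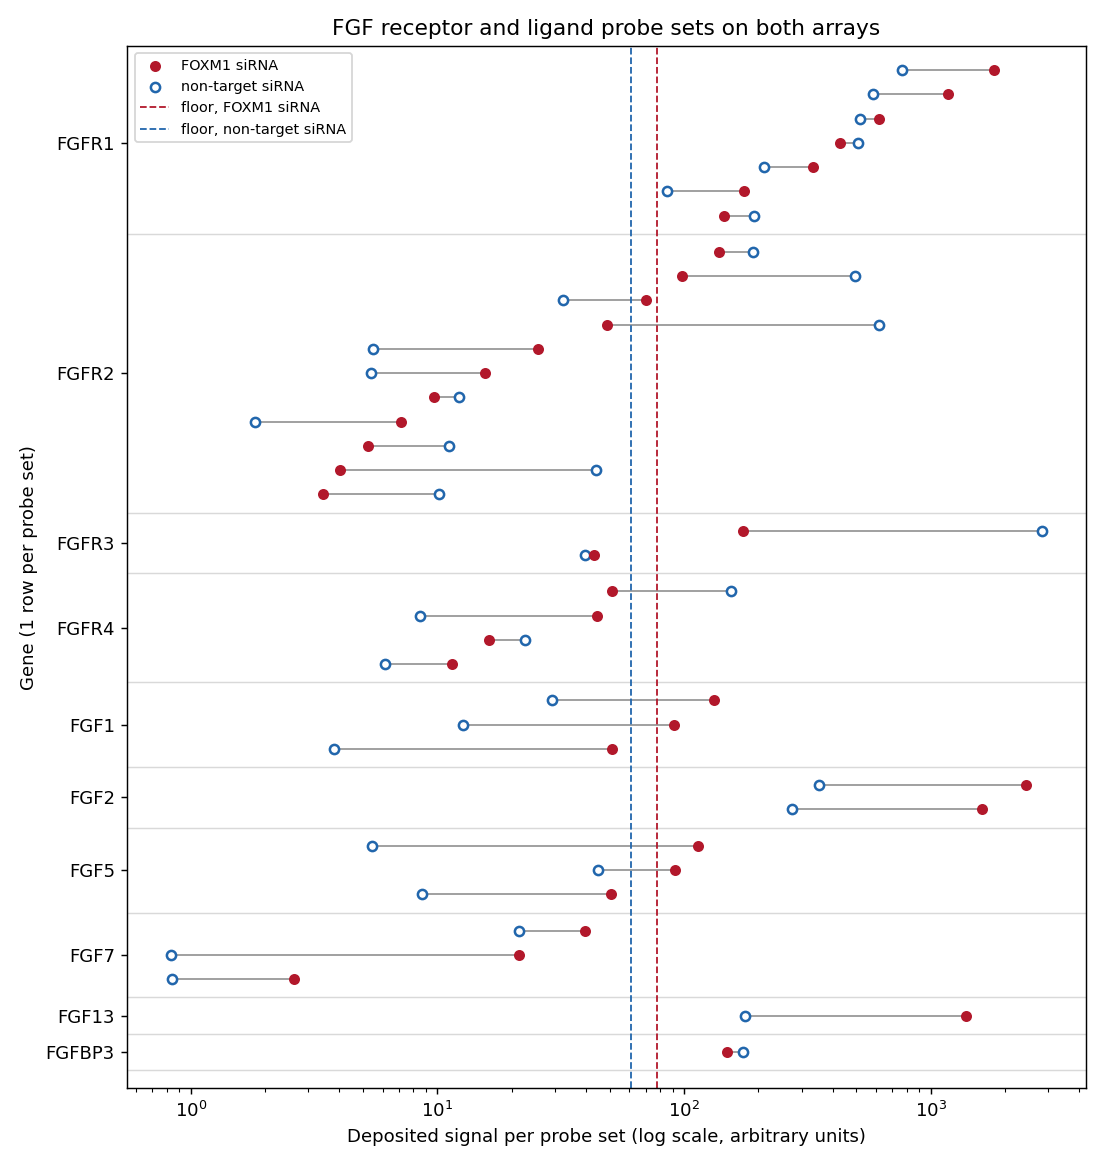
Deposited signal (log axis, arbitrary units) of each of the 37 FGF probe sets, 1 row each and grouped by gene, with FOXM1 siRNA as filled red points and non-target siRNA as open blue points, and the floor of each array as a dashed line. FGF2 and FGF13 lay to the right on FOXM1 siRNA, the bright probe sets of FGFR2 and FGFR3 lay to the right on non-target siRNA, and 17 probe sets lay below both floors.

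FGFR3 gave the largest difference among the receptors. Its probe set 204379_s_at read 173 with FOXM1 siRNA and 2825 with non-target siRNA, both above the floor, a log2 difference of -4.03. Among 13449 genes with a fold, 125, FGFR3 included, differed by as much or more in either direction, or 0.929%. The other FGFR3 probe set, 204380_s_at, read 43.2 with FOXM1 siRNA and 39.6 with non-target siRNA, below both floors, and so gave no second measurement. Single probe sets cannot show whether the whole transcript or 1 form of it differed. The 3 genes above both floors with the log2 difference nearest to that of FGFR3 were GLDC (-4.05), GAS1 (-4.00) and DNAH14 (-3.99), of 11394 searched. With 2 arrays such likeness is the match of 1 difference.

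FGFR2 had 11 probe sets, of which 3 were detected, all dimmer with FOXM1 siRNA. Probe set 203638_s_at read 48.8 with FOXM1 siRNA and 615 with non-target siRNA, and was at least 7.91-fold lower. Probe set 208228_s_at, the brightest on average, read 98.3 with FOXM1 siRNA and 491 with non-target siRNA, a log2 difference of -2.32. Probe set 208229_at read 139 with FOXM1 siRNA and 190 with non-target siRNA, a difference of -0.45, within 0.49. The 2 probe sets above both floors thus differed from each other by far more than the usual spread, with an SD of 1.32. FGFR2 is known to be made in epithelial and mesenchymal forms through a choice between alternative exons, and which form each probe set reads was not analysed here.

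The remaining 8 FGFR2 probe sets lay below both floors and were not in agreement in direction. Probe set 211398_at read 70.2 with FOXM1 siRNA and 32.4 with non-target siRNA. Probe set 240913_at read 25.6 with FOXM1 siRNA and 5.47 with non-target siRNA, and 208234_x_at 15.7 with FOXM1 siRNA and 5.40 with non-target siRNA. Probe set 211400_at read 7.09 with FOXM1 siRNA and 1.83 with non-target siRNA. These 4 were brighter with FOXM1 siRNA, at signals that cannot be told from background. The other 4 were dimmer with FOXM1 siRNA. Probe set 211401_s_at read 4.02 with FOXM1 siRNA and 43.8 with non-target siRNA. Probe set 211399_at read 9.66 with FOXM1 siRNA and 12.2 with non-target siRNA. Probe set 203639_s_at read 5.25 with FOXM1 siRNA and 11.2 with non-target siRNA, and 208225_at 3.43 with FOXM1 siRNA and 10.2 with non-target siRNA.

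FGFR1, the receptor with the most consistent detection, had 7 probe sets, all above both floors. The brightest, 226705_at, read 1802 with FOXM1 siRNA and 762 with non-target siRNA, a log2 difference of 1.24. Probe set 211535_s_at read 1178 with FOXM1 siRNA and 582 with non-target siRNA (1.02). Probe set 207822_at read 176 with FOXM1 siRNA and 85.5 with non-target siRNA (1.04). These 3 were the FGFR1 probe sets at least 2-fold higher with FOXM1 siRNA. Probe set 210973_s_at read 333 with FOXM1 siRNA and 211 with non-target siRNA (0.66), and 215404_x_at 616 with FOXM1 siRNA and 519 with non-target siRNA (0.25). The last 2 ran the other way, both within 0.49: 222164_at read 430 with FOXM1 siRNA and 505 with non-target siRNA (-0.23), and 207937_x_at 145 with FOXM1 siRNA and 191 with non-target siRNA (-0.40). The median over the 7 was 0.66, under 2-fold, with an SD of 0.65. FGFR1 thus had no direction that all its probe sets shared, though none was lower by more than 0.49.

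FGFR4 was below the floor with FOXM1 siRNA in all 4 probe sets. Probe set 204579_at read 51.1 with FOXM1 siRNA, below the floor, and 155 with non-target siRNA, at least 1.995-fold lower, just short of the 2-fold threshold. The other 3 probe sets lay below both floors. Probe set 1554961_at read 44.4 with FOXM1 siRNA and 8.51 with non-target siRNA, 1554962_a_at 16.2 with FOXM1 siRNA and 22.7 with non-target siRNA, and 211237_s_at 11.4 with FOXM1 siRNA and 6.14 with non-target siRNA. With the floor taken without olfactory pseudogenes, 71.4 for FOXM1 siRNA and 53.3 for non-target siRNA, the FGFR4 bound was -1.12, past 2-fold. FGFR4 passed 2-fold in 6 of the 11 settings that gave it a value.

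**Figure D2:**
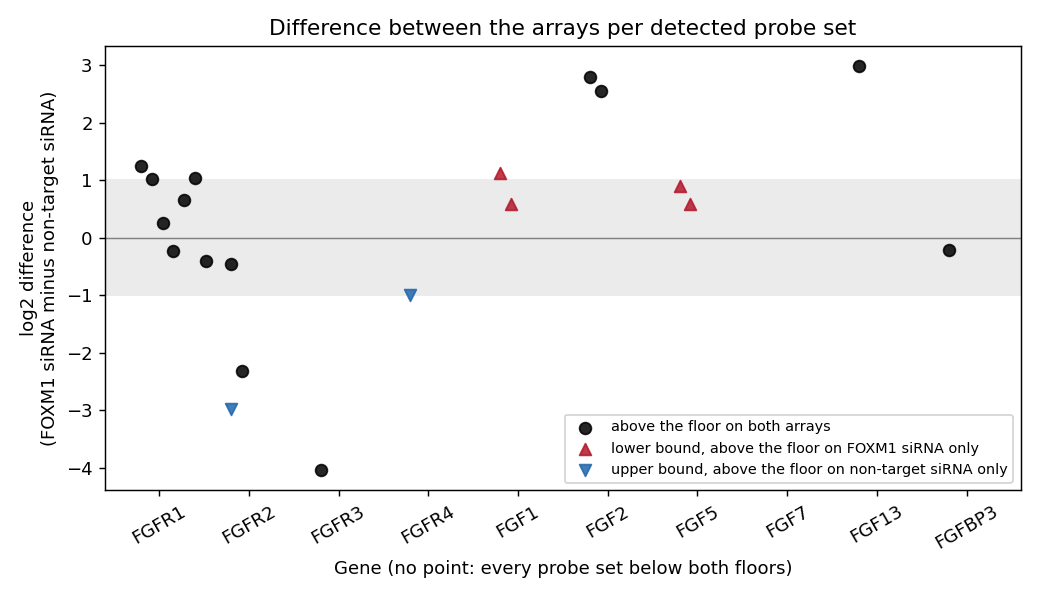
Log2 difference (FOXM1 siRNA minus non-target siRNA) of each detected FGF probe set by gene, with black circles above both floors, red triangles for lower bounds and blue triangles for upper bounds. The grey band marks differences under 2-fold. FGFR2, FGFR3 and FGFR4 lay below 0, FGF1, FGF2, FGF5 and FGF13 above it, and the 7 FGFR1 probe sets ran from -0.40 to 1.24.

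Of the ligands, FGF2 had the best supported difference. FGF2, or basic FGF, leaves cells without a classical signal peptide and binds several FGF receptors. Probe set 204422_s_at read 2436 with FOXM1 siRNA and 353 with non-target siRNA, a log2 difference of 2.79. Probe set 204421_s_at read 1607 with FOXM1 siRNA and 274 with non-target siRNA, a difference of 2.55. Both FGF2 probe sets were thus bright on both arrays and went the same way, with an SD of 0.17. Among the 13449 genes with a fold, 4.86% differed by as much as FGF2 or more.

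FGF1, or acidic FGF, which binds all FGF receptors, had no probe set above both floors. Probe set 205117_at read 132 with FOXM1 siRNA and 29.1 with non-target siRNA, at least 2.17-fold higher. Probe set 208240_s_at read 90.8 with FOXM1 siRNA and 12.7 with non-target siRNA, at least 1.49-fold higher. Probe set 1552721_a_at read 51.2 with FOXM1 siRNA and 3.80 with non-target siRNA, below both floors. FGF1 was therefore detected with FOXM1 siRNA only, in 2 of its 3 probe sets. Over 11 settings its log2 difference ran from 0.76, with the higher floor on both arrays, to 2.18, and 6 of them passed 2-fold.

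FGF5, a secreted ligand known as a regulator of the hair cycle, was likewise detected with FOXM1 siRNA only. Probe set 208378_x_at read 114 with FOXM1 siRNA and 5.42 with non-target siRNA, at least 1.87-fold higher. Probe set 210311_at read 91.7 with FOXM1 siRNA and 44.8 with non-target siRNA, at least 1.51-fold higher, and 210310_s_at read 50.7 with FOXM1 siRNA and 8.62 with non-target siRNA, below both floors. No FGF5 bound reached 2-fold.

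FGF7, the keratinocyte growth factor, which acts on the epithelial form of FGFR2, was not detected on either array. Probe set 205782_at read 39.8 with FOXM1 siRNA and 21.4 with non-target siRNA, 1555102_at 21.5 with FOXM1 siRNA and 0.832 with non-target siRNA, and 1555103_s_at 2.63 with FOXM1 siRNA and 0.837 with non-target siRNA. A further probe set, 1554741_s_at, carries FGF7 and its relatives FGF7P3 and FGF7P6 as symbols and was outside the rule. It read 104 with FOXM1 siRNA and 511 with non-target siRNA, the opposite direction, and its signal cannot be assigned to 1 of the 3 genes. Over FGF1, FGF2, FGF5 and FGF7, 6 of 11 probe sets were detected and 3 were at least 2-fold higher. Of all 54675 probe sets on the array, 59.1% were detected, and 14.7% of the detected ones were at least 2-fold higher. The 3 higher ligand probe sets were 2 of FGF2 and 1 of FGF1. The FGF1 value was a bound, above the floor with FOXM1 siRNA only, so its direction was fixed by detection.

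FGF13 belongs to the FGF homologous factors, which stay inside the cell and are known to bind voltage-gated sodium channels and microtubules. Its single probe set, 205110_s_at, read 1391 with FOXM1 siRNA and 176 with non-target siRNA, a log2 difference of 2.98. As much or more was found for 4.02% of genes with a fold. FGF13 and the nearest FGF2 value in size, 2.79, differed by less than 0.49 and have no settled order. FGFBP3, of a family of secreted carriers known to release FGFs from the matrix, read 149 with FOXM1 siRNA and 173 with non-target siRNA in its single probe set 238453_at. Its log2 difference of -0.22 lay within 0.49.

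Sequence upstream of the start was compared for the members with the largest differences in each direction. RefSeq promoters (GRCh38.p14) were listed for 9 of the 10 members, and FGFR3, FGF2 and FGF13 are shown, the first 2 because each has a single listed start and both lie on chromosome 4, and FGF13 because its 2 listed starts differ. Each line gives the 250 bases before the start, 5′ to 3′ on the gene's strand. Capitals mark the GC box GGGCGG and the AP-1 motif TGANTCA, found on either strand.
FGFR3, chr4:1793043-1793292, plus strand: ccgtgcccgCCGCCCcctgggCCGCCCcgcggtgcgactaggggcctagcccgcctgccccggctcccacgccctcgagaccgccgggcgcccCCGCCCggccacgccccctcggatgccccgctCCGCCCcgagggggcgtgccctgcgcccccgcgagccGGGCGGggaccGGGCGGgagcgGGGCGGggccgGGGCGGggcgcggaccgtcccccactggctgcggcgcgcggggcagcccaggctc
FGF2, chr4:122826581-122826830, plus strand: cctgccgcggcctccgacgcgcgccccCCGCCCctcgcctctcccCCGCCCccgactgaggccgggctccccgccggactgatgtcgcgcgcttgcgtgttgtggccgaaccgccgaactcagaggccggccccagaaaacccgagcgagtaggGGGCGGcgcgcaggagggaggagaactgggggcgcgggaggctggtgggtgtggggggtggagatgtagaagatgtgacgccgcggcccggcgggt
FGF13 start 1, chrX:139205024-139205273, minus strand: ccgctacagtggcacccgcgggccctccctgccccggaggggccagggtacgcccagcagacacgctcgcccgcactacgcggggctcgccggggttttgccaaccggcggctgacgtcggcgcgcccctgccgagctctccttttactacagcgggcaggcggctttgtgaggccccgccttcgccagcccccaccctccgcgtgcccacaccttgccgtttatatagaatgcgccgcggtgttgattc
FGF13 start 2, chrX:138739354-138739603, minus strand: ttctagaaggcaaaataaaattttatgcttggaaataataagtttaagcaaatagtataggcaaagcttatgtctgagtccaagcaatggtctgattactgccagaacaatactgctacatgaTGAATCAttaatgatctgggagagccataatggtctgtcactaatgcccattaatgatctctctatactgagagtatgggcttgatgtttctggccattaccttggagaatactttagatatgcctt

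The FGFR3 window held 8 GC boxes and 40 CpG dinucleotides, and the FGF2 window 3 GC boxes and 33 CpG dinucleotides, against a median of 11 CpG dinucleotides over 35116 promoters. The upstream sequences of a gene that was lower and of one that was higher were thus both rich in CpG. The FGF13 windows held 29 and 0 CpG dinucleotides and no GC box, and the second held 1 AP-1 motif. The forkhead letters TGTTTAC, the CHR letters TTTGAA and the E2F letters TTTCGCG were also searched on both strands and were in none of the 4 windows, and no motifs overlapped. Of all promoters, 42.6% held a GC box, 6.57% the AP-1 motif, 2.98% the forkhead letters, 13.3% the CHR letters and 1.10% the E2F letters. The array does not show which FGF13 start was used.

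Of 17 further FGF genes, 7 were detected, of which 4 passed 2-fold upward and 2 downward with FOXM1 siRNA (all detected genes, 16.0% and 15.4%), with a median log2 difference of 1.05, against -0.02 over all detected genes. FGF18, a ligand known from bone and cartilage growth, read 436 with FOXM1 siRNA and 130 with non-target siRNA, 3.35-fold higher. The other 3 higher genes were the intracellular relatives of FGF13: FGF12 read 139 with FOXM1 siRNA and 63.6 with non-target siRNA, and FGF11 read 300 with FOXM1 siRNA and 145 with non-target siRNA. FGF14 read 126 with FOXM1 siRNA and 44.3 with non-target siRNA, at least 2.07-fold higher. On the log2 scale FGF11, FGF12 and FGF14 had differences of 1.05, 1.13 and at least 1.05, beside 2.98 for FGF13. FGF14 lay above the floor with FOXM1 siRNA only, so its direction was fixed by detection. FGF9, a ligand with high affinity for FGFR3, went the other way, at 71.3 with FOXM1 siRNA and 427 with non-target siRNA, at least 5.49-fold lower. FGF6 read 27.6 with FOXM1 siRNA and 156 with non-target siRNA, at least 2.01-fold lower. Of the sodium channel genes whose products FGF13 and its relatives bind, 3 of 6 were detected. SCN2A read 131 with FOXM1 siRNA and 24.8 with non-target siRNA, at least 2.15-fold higher, SCN8A had a log2 difference of 0.87, and SCN9A was at least 1.15-fold lower.

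Of 11 genes for proteins that bind FGFs or their receptors, 8 were detected, 1 past 2-fold in each direction (median 0.30). Among all detected genes, 16.0% were higher and 15.4% lower. The leucine-rich repeat genes FLRT2 and FLRT3, whose products interact with FGF receptors, moved apart. FLRT2 read 1171 with FOXM1 siRNA and 140 with non-target siRNA, 8.35-fold higher, while FLRT3 read 174 with FOXM1 siRNA and 805 with non-target siRNA, 4.64-fold lower. The probe sets of FLRT2 ran from 1.38 to 3.06 on the log2 scale. The log2 differences of the adhesion genes NCAM1 and CDH2, whose products are known to bind FGFR1, were 0.54 and 0.23. The other CDH2 probe set above both floors had -0.36. The co-receptor genes KL and KLB, required by the hormone-like FGFs, were below both floors, and FGFRL1, a receptor without kinase, had at most -0.31.

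Few genes that pass on the receptor signal differed by 2-fold. Of 16 genes listed, 13 were measured, all above both floors, and FRS2 was not among these 13. Of the 13, 1 passed 2-fold, upward, against 16.0% higher and 15.4% lower among all detected genes. The median was 0.11. The exception was the adaptor gene SHC1, which read 9698 with FOXM1 siRNA and 2956 with non-target siRNA, 3.28-fold higher, with 0.82 in its other probe set on the log2 scale. MAP2K1 (0.73), MAP2K2 (0.54) and GRB2 (0.49) followed, with other probe sets down to -0.50 for MAP2K2 and -0.15 for GRB2.

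Feedback inhibitors and ETS genes induced by FGF signalling, which other receptor kinases induce as well, were mostly higher. Of 11, all detected, 8 passed 2-fold upward and 2 downward, against 16.0% and 15.4% of all detected genes, with a median log2 difference of 1.51. Like the other lists, this one was chosen with earlier results of these data known. Its larger share therefore cannot be read as a result about FGF signalling. ETV1 read 5841 with FOXM1 siRNA and 644 with non-target siRNA, 9.07-fold higher, with 1.39 to 3.18 on the log2 scale over its 4 probe sets. SPRY4 read 387 with FOXM1 siRNA and 91.8 with non-target siRNA, 4.22-fold higher, beside 2.09 for SPRY2 and 4.24 for DUSP6 on the log2 scale. SPRED1, SPRED3, ETV4 and ETV5 had differences of 1.59, 1.51, at least 1.37 and 1.27. Of the 2 lower members, which like most of the higher ones act as inhibitors, SPRY1 read 149 with FOXM1 siRNA and 482 with non-target siRNA, 3.22-fold lower, and IL17RD (SEF) read 192 with FOXM1 siRNA and 626 with non-target siRNA, 3.26-fold lower. Both went against the rest of the list.

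Heparan sulfate, the co-receptor of FGFs, was represented by 20 genes on the array, 19 of them detected, with 6 past 2-fold upward and 6 downward, against 16.0% and 15.4% of all detected genes, and a median of 0.09. HS6ST2, a 6-O-sulfotransferase, was 20.6-fold lower with FOXM1 siRNA, and SULF2, a sulfatase that removes 6-O-sulfate, read 136 with FOXM1 siRNA and 1809 with non-target siRNA, 13.3-fold lower. GPC4, a glypican, read 104 with FOXM1 siRNA and 1434 with non-target siRNA, 13.8-fold lower. HS2ST1 (-1.88), GPC3 (-1.67) and SULF1 (at most -2.19) were the other lower members on the log2 scale. Of the higher members, SDC4, a syndecan, read 5057 with FOXM1 siRNA and 737 with non-target siRNA, 6.86-fold higher. GPC6, SDC1, AGRN, HSPG2 and the chain polymerase gene EXT1 had log2 differences of 2.18, 1.95, 1.43, at least 1.25 and 1.10. The 3 AGRN probe sets above both floors did not share a direction and ran from -0.23 to 1.43.

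Regulators of the FGFR2 exon choice were described as a further list. Of 8 on the array, 7 were detected and none reached 2-fold in its brightest probe set, against 16.0% higher and 15.4% lower among all detected genes. The median was -0.78, with TIA1 (-0.98), HNRNPM (-0.93), HNRNPF (-0.86) and HNRNPA1 (-0.78) lowest. Single probe sets reached -1.70 for TIA1 and -1.59 for HNRNPA1 at the low end, and -0.46 for TIA1, 0.02 for HNRNPM and 0.53 for RBFOX2 at the high end. The list median was -1.09, past 2-fold, with the hybridisation controls set equal. ESRP1, the epithelial regulator that favours the epithelial form, read 44.6 with FOXM1 siRNA and 26.6 with non-target siRNA, below both floors.

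**Figure D3:**
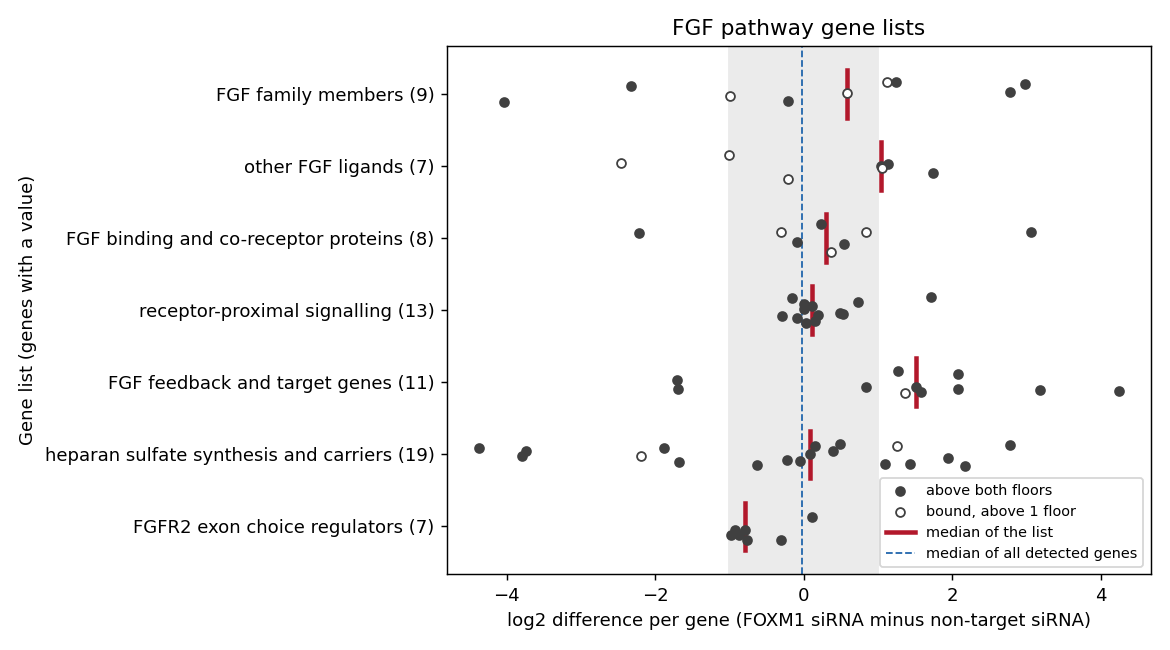
Log2 difference per gene (FOXM1 siRNA minus non-target siRNA) for the FGF family and 6 related lists, with the number of genes with a value in brackets, open points for bounds, a red line at each list's median and a dashed line at the median of all detected genes (-0.02). The feedback and target genes had the highest median, 1.51, and the signalling genes other than SHC1 lay between -0.29 and 0.73.

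The values of single genes kept their sign in all settings tried, as far as a setting gave them a value. FGF2 ran from 2.48 to 2.88, FGF13 from 2.67 to 3.04 and FGFR3 from -4.33 to -3.69 on the log2 scale. FGFR2 ran from -2.62 to -0.45, the last value without probe sets whose IDs end in _x_at or _s_at, whose probes can match several transcripts. All detected probe sets of FGFR3, FGF2 and FGF13 are of that kind, so these genes had no detected probe set left in that setting.

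**Figure D4:**
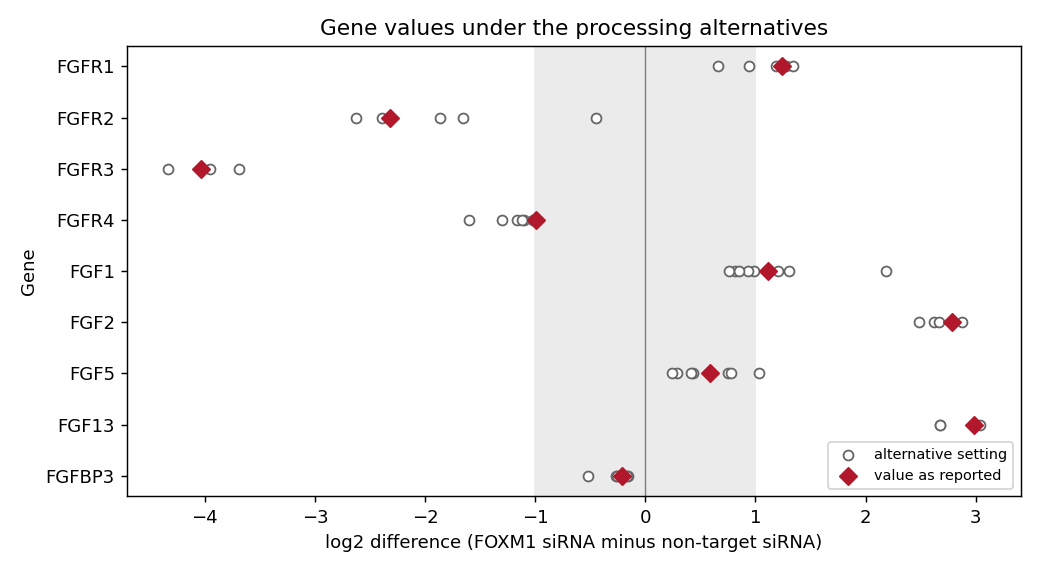
Log2 difference of each detected FGF gene (FOXM1 siRNA minus non-target siRNA) as reported (red diamonds) and under each processing alternative (open circles), with the grey band marking differences under 2-fold. FGFR3, FGF2 and FGF13 stayed outside the band in every setting that gave them a value, whereas FGFR1, FGFR2, FGFR4, FGF1 and FGF5 crossed its edge in at least 1 setting.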

How the data were processed

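Total RNA of 2 samples was labelled with a 3' IVT kit, per the labels' protocols, and hybridised to 1 array each. The deposited values are linear signal intensities made by the authors with MAS5, per the submitters' processing notes, with version and settings not given in the sources used here. Their trimmed means (2% left out at each end) were 500.07 on both arrays, so they had been scaled to a common target. No detection calls were used, and the number of arrays limits the precision.

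Genes were assigned from the array's annotation table (42898 listed, 41097 with 1 symbol, 1801 with several, 11777 not listed). Symbols were updated through gene IDs (GRCh38.p14 gene table, 99.9%), giving 19775 genes. Members are all probe sets with 1 member symbol. Signals below the floor were set to it, then logged. Each gene took the values of its brightest probe set (mean of log2 signals). Detected genes whose bound fell under 1-fold (416) were given no fold. Calls use 2-fold.

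Members and lists were chosen with earlier results of these data known. Every member probe set was named, with up to 4 genes per other list of largest difference, members of lists with 5 or fewer calls, and the 3 genes nearest FGFR3. Further genes (such as KL, KLB, ESRP1, FGFRL1, and those given beside the named 4) were named after their values were seen. The calculation was tested on simulated data. Python 3.11.15 (numpy 2.4.6, pandas 2.3.3, matplotlib 3.10.9) and limma 3.58.1 in R 4.3.3 were used. Alternatives were 4 scalings, 4 floor settings, a pseudocount of 50, the median of probe sets, fewer probe sets and a 1.5-fold threshold.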

Additional observations from a re-analysis of the deposited data

How the results depend on the processing

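No paired analysis was possible because each group held 1 array. The floor without olfactory pseudogenes was chosen after seeing the data. With the hybridisation controls set equal, 3 FGF probe sets and 2 FGF genes were at least 2-fold higher, and the median of all detected genes was -0.30 in place of -0.02. Without _x_at and _s_at probe sets, 3 FGF probe sets and 2 genes were higher and 0 probe sets and 0 genes were lower, since 18 of the 37 probe sets remained, 8 of them detected. With the median of probe sets, 2 genes were higher. The median of the other FGF ligands was 0.52 with a floor 2 times as high and 0.42 without _x_at and _s_at probe sets. The other counts stayed within 1.5 times, and the other list medians moved by less than 0.49. No sign of a called value turned. Over all genes, the 1.5-fold threshold called 3623 higher and 3714 lower. Signal over background limits FGFR4, FGF1 and FGF5 to bounds and gives FGF7 no value.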
